A study of Mus musculus with 3 samples.

Results

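The change in the Eif4g3 siRNA ratio between the top of a sucrose gradient and its heavy polysomes was measured for 10721 genes of the 27745 gene names on the array (38.6%). These genes rest on 14063 of 41174 probes (34.2%), namely those well above background in both colours on both arrays, by the scanner software's own criterion. For each probe the log2 siRNA ratio (Eif4g3 siRNA divided by control siRNA) at the top of the gradient was subtracted from that in heavy polysomes, and probes were averaged for each gene name. The cells were cultured lymph node stromal cells (LNSCs) of the BALB/c strain, that is, non-blood cells that form the framework of a lymph node. One group received control siRNA and the other Eif4g3 siRNA, 400 pmol in each case, delivered with a lipid reagent (Lipofectamine), and cells were collected at 48 h. Cells of 7 plates were combined for each siRNA, so that each group is a single pool. The lysates were spun through a continuous gradient of 10% to 60% sucrose, and its fractions were combined into a top, a light polysome and a heavy polysome pool. Each pool gave 1 array, on which Cy5 marked the Eif4g3 siRNA cells and Cy3 the control cells, without a dye swap or a repeat. No p-value can be given, fraction and array cannot be told apart, and the errors below cover the spot alone.

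Eif4g3 encodes eIF4GII, a scaffold that joins the cap-binding protein, an RNA helicase and the poly(A)-binding protein, and through them brings the small ribosomal subunit to the 5′ end of an mRNA. In a sucrose gradient, mRNAs that carry many ribosomes sink to the heavy polysomes, while mRNAs without ribosomes or with few stay at the top. A positive heavy minus top difference means that the siRNA ratio was larger in the heavy polysomes than at the top, so that the mRNA lay deeper in the gradient after Eif4g3 siRNA relative to other mRNAs. A negative difference means the reverse. Since each array is centred on its own genes, a movement of all mRNAs together cannot be seen. Above, below, near or at control hereafter means relative to that array's centre, not to the raw signals.

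Ribosomal protein and elongation factor mRNAs are the best known class whose translation is governed through their 5′ end. They begin with a C followed by a run of pyrimidines, the 5′ terminal oligopyrimidine (TOP) motif, through which the growth regulator mTOR controls them. Of 93 measured genes of this class, 68 (73.1%) had an annotated start in the RefSeq promoter table of the GRCm38.p6 build. The motif CTTTC, a common opening of such tracts, lay within 10 bases before to 25 bases after the start on the transcribed strand in 16 of them (23.5%), against 1427 of all 32851 starts (4.34%). On the other strand it was found in 3 (4.4%), against 1434 of all starts (4.37%). The windows of the 6 genes with the lowest and the 2 with the highest heavy minus top difference among these 16 are printed. They show these letters near the annotated start of each gene. The letters lie mostly before that start in Gnb2l1 and begin inside the transcript in genes such as Rpl12, Rpl13a and Rps26. In those genes they do not open the annotated transcript as a TOP motif would. Each window covers 45 bases, 20 before and 25 after the annotated start, with CTTTC in capitals.
Gnb2l1 (the ribosome scaffold RACK1), chr11:48800340-48800384, plus strand: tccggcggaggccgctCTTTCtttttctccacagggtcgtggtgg
Rpl28, chr7:4792945-4792989, plus strand: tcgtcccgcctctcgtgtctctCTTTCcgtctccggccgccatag
Rpl12, chr2:32961692-32961736, plus strand: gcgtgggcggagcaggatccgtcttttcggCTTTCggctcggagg
Fau (which yields Rps30), chr19:6057927-6057971, plus strand: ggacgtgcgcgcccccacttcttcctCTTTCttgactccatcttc
Rpl13a, chr7:45128721-45128765, minus strand: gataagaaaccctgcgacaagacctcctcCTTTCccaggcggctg
Rpl18, chr7:45718051-45718095, plus strand: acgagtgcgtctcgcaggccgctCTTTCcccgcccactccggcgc
Rps26, chr10:128626482-128626526, minus strand: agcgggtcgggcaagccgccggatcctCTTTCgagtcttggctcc
Rpl38, chr11:114668560-114668604, plus strand: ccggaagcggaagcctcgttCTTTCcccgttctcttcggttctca

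The heavy minus top difference was -0.88 for Gnb2l1, -0.73 for Rpl28, -0.66 for Rpl12, -0.49 for Fau, -0.47 for Rpl13a and -0.43 for Rpl18. It was 0.29 ± 0.29 for Rps26 and 0.33 ± 0.29 for Rpl38. These positive values are about as large as their spot errors, so they do not establish differences above 0. Whether the letters go with a direction was not tested. With fewer than 80% of the class matched to a start, no comparison between genes with and without the motif was made.

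Among the 10721 genes, 87 (0.811%) had a ratio at least 2-fold higher in heavy polysomes than at the top, a log2 difference of 1 or more, and 75 (0.7%) one at least 2-fold lower. Of all genes 49.9% had a difference above 0. The lower and upper quartiles were -0.25 and 0.25, and the whole range ran from -2.29, a gene with a clone name, to 1.71. Different probes of a gene had a median SD of 0.157 over the 2729 genes with 2 or more measured probes, and 100 probes spotted 10 times had a median SD of 0.091. The software's error of a gene's difference had a median of 0.294, well below a log2 difference of 1. That error was made for the software's own ratio and not for the ratios used here, so it does not measure their spread. All 24 genes past 2-fold with 2 or more probes had every probe on the same side of 0. Choosing genes by the mean of those probes makes this likely, so it is no separate support. Of the higher genes 72 of 87 (82.8%) and of the lower genes 66 of 75 (88.0%) rest on 1 probe, however. Among all measured genes 7992 of 10721 (74.5%) did so.

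The higher genes were mostly below control at the top and above it in the heavy polysomes. Their median log2 ratio was -0.67 for top, 0.03 for light and 0.54 for heavy, and 74 of 87 (85.1%) had a ratio below 0 in one fraction of the pair and above 0 in the other. The lower genes mirrored this, with medians of 0.65, -0.15 and -0.56 and opposite signs in 55 of 75 (73.3%). Over all measured genes 4627 (43.2%) had opposite signs. The light polysome ratio, which was not used to choose these genes, lay between the other two in 86 of the 87 higher genes (98.9%) and in 52 of the 75 lower ones (69.3%), against 4081 of all genes (38.1%). A wide gap leaves more room for a middle value, so the shares describe these genes and were not tested. The larger step was from top to light in 66 of the higher and 46 of the lower genes, against 5198 of all 10721 genes.

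**Figure D1:**
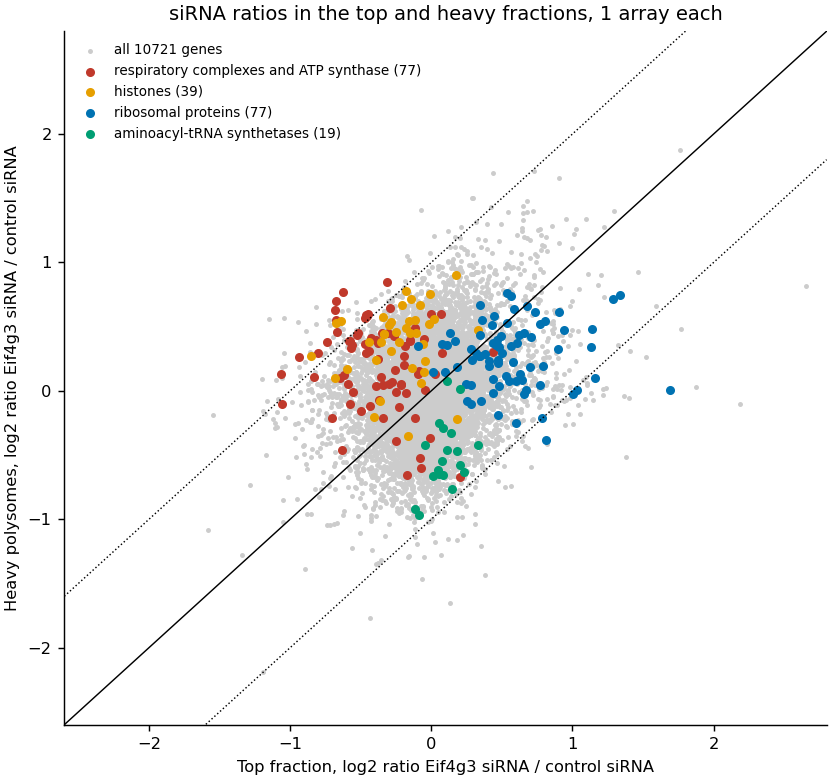
Each point is 1 gene, with its log2 siRNA ratio (Eif4g3 over control) at the top of the gradient (x axis) and in the heavy polysomes (y axis), 1 array each; the solid line marks equal ratios and the dotted lines a 2-fold difference. Genes of the respiratory complexes (77) and histone genes (39) lie mostly above the solid line, ribosomal protein genes (77) mostly to the right, and the 19 aminoacyl-tRNA synthetase genes below it.

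Genes with 2 or more measured probes do not rest on a single spot. The probes of Cox7a2 overlap each other, as do those of Chchd2 and some of those of Cycs. They are not independent readings of these genes, although the errors treat them as such. Of these, 12 were named on the higher side and 8 on the lower side, and they include parts of the spliceosome, the respiratory chain, the antigen-presenting complex and the translation apparatus. Snrpd3, a ring protein of the spliceosomal snRNPs, had log2 ratios of -1.04 at the top, 0.28 in light polysomes and 0.57 in heavy ones. Its difference was 1.61 ± 0.22, with 1.58 and 1.65 from its probes on chromosome 10 (mm8 build, plus strand), at 74976010 to 74976069 and 74978998 to 74979057. In linear terms that is 3.06-fold. Control cells had less Snrpd3 signal in heavy polysomes than at the top (log2 heavy over top of -0.65, on a scale relative to each array's signal distribution), whereas Eif4g3 siRNA cells had more (0.96). In a bulk sample, fewer cells of a type and less RNA per cell cannot be told apart, here or in any value below.

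Ndufa1, an accessory subunit of respiratory complex I, followed the same order with ratios of -0.62, 0.26 and 0.77 in the top, light and heavy fractions. Its difference of 1.40 ± 0.21 came from probes at 1.28 and 1.51 on the X chromosome (mm8, minus strand), at 33619077 to 33619136 and 33621323 to 33621382. The top value was the low one and the heavy value the high one in both probes. B2m, the light chain of MHC class I molecules, had ratios of -0.72, 0.38 and 0.56 and a difference of 1.28 ± 0.21, and its probes were close together at 1.27 and 1.28. Cox7a2, a small subunit of cytochrome c oxidase, had -0.67, 0.03 and 0.55 and a difference of 1.22 ± 0.21. By their gene means, the remaining higher genes fall into those that were below control at the top and those that started near 0.

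Mrpl3 of the mitochondrial ribosome was the clearest of the first kind, with a ratio of -1.06 at the top and no more than 0.10 in the heavy polysomes. Its difference of 1.16 ± 0.22 therefore came almost wholly from the top array. Chchd2, a mitochondrial and nuclear protein of oxidative stress (-0.75 and 0.30), and Rnase4, a secreted ribonuclease (-0.67 and 0.37), were also lower than control at the top. Cycs, cytochrome c, had means of -0.45 and 0.60, but its 3 probes had -0.141, -0.195 and -1.003 at the top. Its low top mean thus rests mainly on the last of these, and its probe differences ran from 0.755 to 1.486. Nppb, a natriuretic peptide, was the opposite case to Mrpl3. It had -0.07 at the top, 1.13 in light and 1.41 in heavy polysomes and a difference of 1.48 ± 0.23. Kifc1, a mitotic motor (-0.17, 0.78 and 1.05), Pigx of glycolipid anchor synthesis (-0.12, 0.89 and 0.92) and Cotl1, an actin-binding protein (-0.18, 0.27 and 0.86), likewise started near 0 and were high in polysomes. The Pigx signals at the top were dim after background subtraction, 34.8 for control and 24.7 for siRNA cells. Those of Kifc1 (58.6 and 45.3) and Nppb (68.1 and 61.3) were dim too, while those of Cotl1 were bright (12396.9 and 11337.1). The processing pulls ratios of dim spots towards 0, so a start near 0 is not established for Nppb, Kifc1 and Pigx. With the scanner software's ratio the differences were 1.472 for Nppb, 1.763 for Kifc1, 1.225 for Pigx and 0.975 for Cotl1.

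On the lower side Rpsa, a small ribosomal subunit protein that also serves as a laminin receptor, stood first. Its ratio was 1.69 at the top, 0.24 in light polysomes and 0.01 in heavy ones. The difference was -1.68 ± 0.24, with -1.93 and -1.43 from probes on chromosome 9 (mm8, plus strand) at 119977169 to 119977228 and 119980547 to 119980606. Rps2 was alike (1.16, -0.21 and 0.10), as was Ybx1, a major mRNA-packaging protein (0.94, -0.11 and -0.08). In these genes the top ratio was above the centre of its array and the heavy ratio was near the centre of its own. Near-identical pseudogene copies of such genes may hybridise to the same probes.

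Eef2, the translocation factor of elongation, and Hspa8, the constitutive HSP70 chaperone, differed from Rpsa in where the change lay. Eef2 had 0.52, 0.21 and -0.75 and a difference of -1.27 ± 0.18, with 3 probes between -1.53 and -0.96. Hspa8 had 0.71, 0.48 and -0.60 and a difference of -1.30 ± 0.21. Their polysomal ratio was lower in the heavy fraction alone, while the light fraction stayed above control. Eef1a1, which delivers tRNA to the ribosome (0.85, 0.48 and -0.17), and Pkm2, the pyruvate kinase gene now named Pkm (0.32, -0.27 and -0.70), also passed 2-fold with both probes below 0.

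The siRNA target itself is among these genes. Eif4g3 had ratios of -0.43 (top), -1.06 (light) and -1.77 (heavy). Its probes on chromosome 4 (mm8, plus strand), at 137475547 to 137478087 and 137478284 to 137478343, gave differences of -1.33 and -1.35. Its remaining mRNA was thus lowest relative to control in the heavy polysomes. The top signals of Eif4g3 were dim, 93.5 for control and 54.7 for siRNA cells, and its difference was -0.992 with the software's ratio. Eif4g1, its close relative, had -0.04 at the top and -0.78 in the heavy fraction with the 1 probe measured on both arrays. That is a difference of -0.74 ± 0.33, on dim top signals of 34.7 and 30.4. Eif4g2, a relative that lacks the site for the cap-binding protein, had a difference of -0.03 ± 0.15 over 4 probes.

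**Figure D2:**
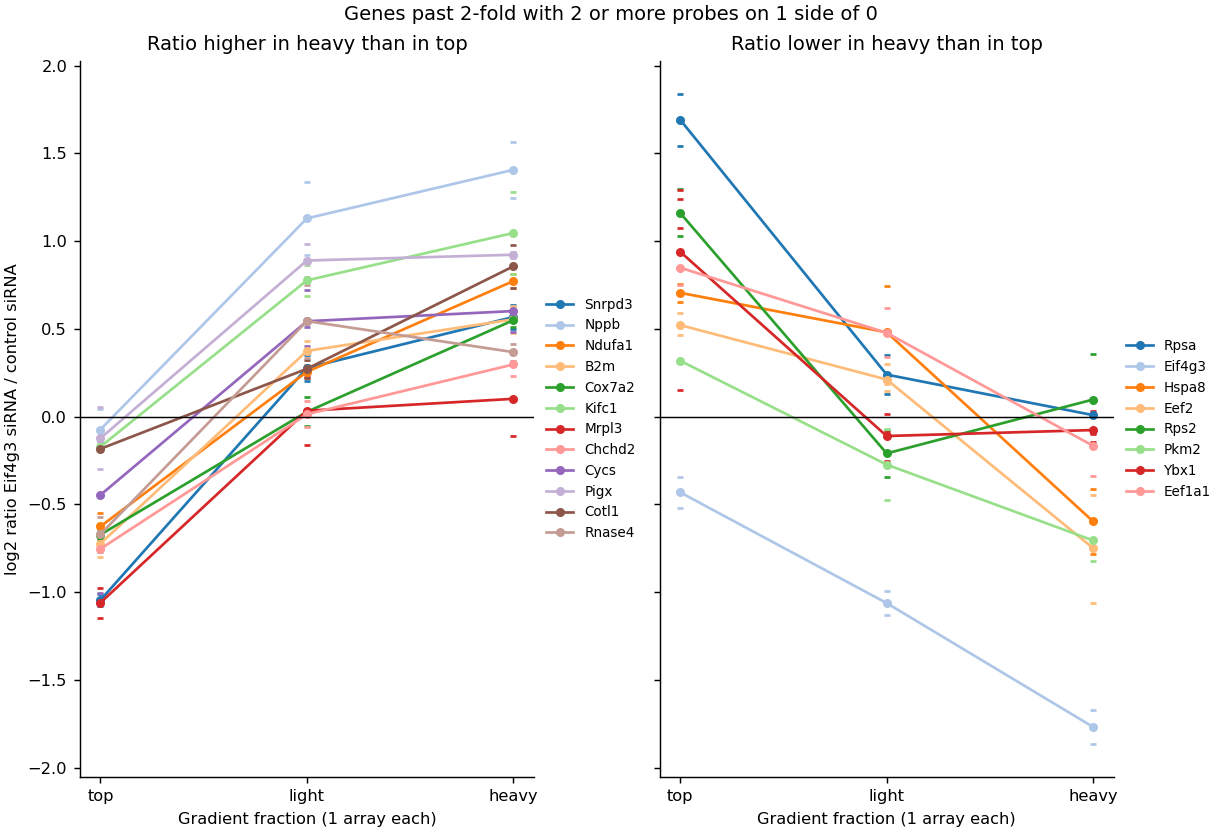
The log2 siRNA ratio, Eif4g3 over control (y axis), is drawn in the top, light and heavy fractions (x axis, 1 array each) for the 12 higher genes (left) and 8 lower genes (right) with 2 or more probes; lines and dots are gene means and short bars single probes. Snrpd3 runs from -1.04 to 0.57 and Rpsa from 1.69 to 0.01, while Eif4g3 is below 0 on all 3 arrays.

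Nuclear-encoded mRNAs of the mitochondrial respiratory chain lay higher in heavy than in top, as a broad group. The chain passes electrons from complex I to complex IV and pumps the protons that drive ATP synthase, and most of its subunits are small proteins made in the cytosol and imported. Over 77 measured genes of the complexes and the synthase, the median difference was 0.55, with 69 above 0, 14 (18.2%) at 2-fold or more higher and 0 at 2-fold lower, against 0.811% and 0.7% of all genes. In the top fraction 72 of the 77 were below 0 and in the heavy fraction 58 were above 0. The light value lay between the other two in 51 (66.2%), against 38.1% of all genes.

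Complex I, the entry point for electrons from NADH, had a median difference of 0.66 over 36 genes. Of these 33 were above 0 and 5 past 2-fold, against 49.9% and 0.811% of all genes. The medians of complex I were -0.39 in top, -0.10 in light and 0.14 in heavy. Ndufa4 (now placed with complex IV by many authors, kept here in its original list) had -0.94, -0.20 and 0.27, and a difference of 1.21 ± 0.30. Ndufc2 had -1.06, 0.06 and 0.13 and a difference of 1.19 ± 0.31. Ndufb3 (1.12) and Ndufb6 (1.10), both accessory subunits of the membrane arm, completed those past 2-fold. Among the 3 members below 0 were Ndufs1 (-0.49) and Ndufv1 (-0.14), which are core subunits of the arm that reaches into the matrix.

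Complexes II to IV, with cytochrome c, had a median of 0.64 over 24 genes. Against 49.9% and 0.811% of all genes, 21 of the 24 were above 0 and 8 past 2-fold. The largest was Cox6a1 of cytochrome c oxidase, with ratios of -0.68, 0.28 and 0.70 and a difference of 1.38 ± 0.30. Its background-subtracted control signal was 22735 at the top and 184820 in heavy polysomes, so these spots were bright. Cox7c (1.16), Cox7b (1.13) and Cox6c (1.04) of the same enzyme, and Uqcrq (1.05) and Uqcrb (1.03) of complex III, also passed 2-fold. Cox7c reached the highest heavy ratio of the chain, 0.85, from -0.31 at the top. Below 0 were Sdha (-0.88 ± 0.38), the flavoprotein of complex II, Cox7a2l (-0.13), a factor that joins complexes, and Uqcrc1 (-0.10), a core protein of complex III.

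ATP synthase had a median of 0.53 over 17 genes with 15 above 0. Atp5g3, a copy of the proton-carrying c subunit, was the 1 member past 2-fold, with ratios of -0.68, 0.52 and 0.63 and a difference of 1.31 ± 0.30. Atp5j2 (0.79) and Atpif1 (0.75), the synthase's inhibitor, followed. The members below 0 encode the catalytic head. Atp5a1 had -0.36 ± 0.20 over 2 probes, and was near control at the top and below it in the heavy fraction. Atp5b had a mean of -0.44 over 3 probes, but they ran from -0.865 to 0.214, on both sides of 0, and the scanner software's ratio gave -0.21.

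**Figure D3:**
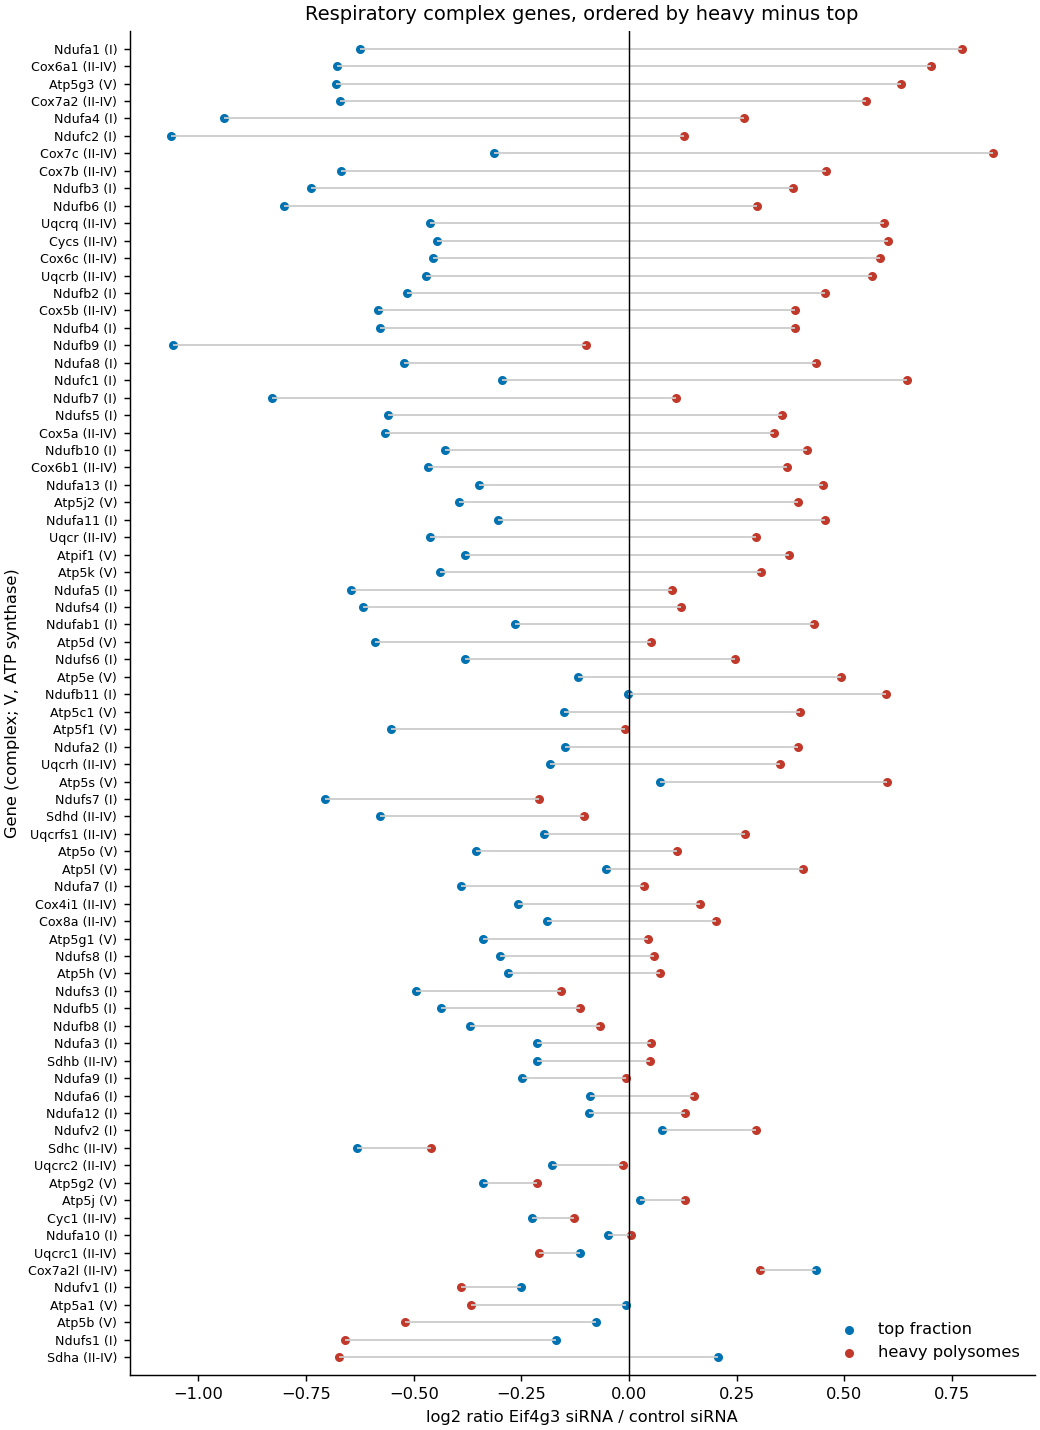
Each row is 1 of 76 genes of complex I, complexes II to IV or ATP synthase (V), ordered by heavy minus top; blue is the log2 siRNA ratio in the top fraction and red that in heavy polysomes, 1 array each. In 69 rows red lies to the right of blue; the 7 rows at the foot, from Uqcrc1 to Sdha, have the reverse order.

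Other mitochondrial lists had medians on the same side of 0, of smaller size. The mitochondrial ribosome, which makes the few subunits encoded by mitochondrial DNA, had a median of 0.29 over 73 genes, with 57 above 0 and 6 past 2-fold on the higher side, against 49.9% and 0.811% of all genes. Mrpl41 had -1.06 at the top and 0.19 in the heavy fraction, a difference of 1.25 ± 0.30. Mrpl14 (1.12), Mrps28 (1.05), Mrpl20 (1.03) and Mrps6 (1.002, 2 probes) were the others besides Mrpl3, and the lowest member was Mrpl47 (-0.38 ± 0.21). Mitochondrial import had a median of 0.34 over 18 genes, of which 14 were above 0 and 0 passed 2-fold. Its highest members were Tomm7 of the outer membrane pore (0.85), Timm22 (0.77) and Timm10 (0.72), a chaperone of the space between membranes. Its lowest were Tomm40, the pore itself (-0.58 ± 0.41, with a control signal of only 25.2 at the top and a difference near 0 by the scanner software's own ratio), and Timm44 (-0.38). Zcd1, now named Cisd1, an iron-sulfur protein of the outer membrane, had ratios of -0.82, 0.00 and 0.52 and a difference of 1.34 ± 0.30.

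No list had a higher median than the histones, at 0.70 with 39 genes measured. Of these 37 were above 0, and 3 (against 0.811% of all genes) passed 2-fold. Histones package DNA, and the mRNAs of those made for DNA replication end in a stem-loop in place of a poly(A) tail. The list medians were -0.18 in top, 0.11 in light and 0.45 in heavy, with 35 of 39 below 0 at the top and 35 above 0 in heavy polysomes. Hist1h2bc (now H2bc4) had -0.67, -0.09 and 0.53, a difference of 1.20 ± 0.30. Hist1h4i (now H4c9) had 1.18 ± 0.30. Core histone genes are near-identical copies, so their probes are not independent of each other. H2afz, a variant histone made throughout the cell cycle and now named H2az1, had -0.85, 0.07 and 0.27, a difference of 1.13 ± 0.30. The 2 below 0 were H2afy, macroH2A (-0.40 ± 0.17, 3 probes), and the linker histone Hist1h1b (-0.18). The HMG proteins, small architectural proteins of chromatin, were above 0 in 8 of 8 measured genes with a median of 0.21. Hmga2 led with 0.59 ± 0.21.

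The Sm and Lsm proteins form rings around small nuclear RNAs and decaying mRNAs. They had a median of 0.45 over 25 genes, 20 above 0 and 2 past 2-fold on the higher side, against 49.9% and 0.811% of all genes. Beside Snrpd3, Lsm8 had -0.66 at the top, 0.03 in light and 0.53 in heavy, a difference of 1.20 ± 0.30. Snrpf (0.96 ± 0.21, 2 probes) fell just short of 2-fold. Snrp70, the large U1 protein now named Snrnp70, was lowest at -0.56 ± 0.25. By contrast the SR and hnRNP proteins, which regulate splicing, had a median of -0.18 over 34 genes with 24 below 0 and 0 past 2-fold. Their extremes were Hnrpu (-0.81 ± 0.21, now Hnrnpu) and Hnrph3 (0.56 ± 0.31, now Hnrnph3).

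Genes of the cytosolic translation apparatus had lower ratios in heavy than in top, and its branches did so in distinct ways along the gradient. Over 150 genes of the ribosome, the elongation and initiation factors and the tRNA synthetases, the median difference was -0.32, with 119 below 0, 9 (6.0%) past 2-fold on the lower side, against 0.7% of all genes, and 0 on the higher side. Among 77 ribosomal protein genes 76 were above 0 in the top fraction, and 67 were above 0 in the heavy polysomes too. Their ratios thus lay above those of the median gene at both ends, and 60 of 77 were less so in the heavy polysomes. Only 11 of the 77 had opposite signs at top and heavy.

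Over all genes 5367 of 10721 were below 0 and 0.7% passed 2-fold on the lower side. The large ribosomal subunit had a median difference of -0.28 over 46 genes, 34 below 0 and 3 past 2-fold. Rpl4 had 0.81 in top, 0.25 in light and -0.38 in heavy, a difference of -1.19 ± 0.30. Rpl5, which carries the 5S RNA (1.03, 0.27 and 0.00), was also past 2-fold. Rpl21 (0.44 ± 0.29), Rpl38 (0.33) and Rpl27 (0.32) were at the other end. The small subunit had a median of -0.21 over 31 genes, 26 below 0 and, with Rpsa and Rps2, 2 past 2-fold. Its direction depends on the processing, since the median was 0.02 with the scanner software's own ratio. Rps15, at -0.997 ± 0.296, lay just inside the threshold. The small subunit's medians were 0.48 in top, 0.04 in light and 0.35 in heavy, so that light and not heavy was lowest, and the light value lay between the others in 3 of 31 genes.

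Elongation factors and other TOP mRNAs had a median of -0.47 over 16 genes, 13 below 0, and medians of 0.59, 0.13 and 0.07 along the gradient. Pabpc1, the cytosolic poly(A)-binding protein, had a ratio of 1.22 in top, -0.38 in light and 0.01 in heavy, a difference of -1.20 ± 0.30. It joined Eef2 and Eef1a1 past 2-fold. Btf3 (0.19) and Naca (0.09), both of the complex that binds nascent chains, were above 0. Initiation factors had -0.23 over 38 genes, 27 below 0, and apart from the target Eif4g3 none passed 2-fold. Next to it came Eif3s10, the largest eIF3 subunit and now named Eif3a (-0.86 ± 0.21), and Eif5b, which joins the ribosomal subunits (-0.79 ± 0.14 over 5 probes). Eif4e3, a cap-binding relative (0.53 ± 0.32), and Eif1ay (0.45 ± 0.21) were highest.

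The aminoacyl-tRNA synthetases, which load amino acids onto tRNAs, had the lowest median of the lists, -0.67 over 19 genes. All 19 were below 0, though 0 passed 2-fold. Unlike ribosomal proteins they were close to control at the top (median 0.08) and in light polysomes (0.13) and lower in heavy (-0.55). Nars had 0.15, -0.40 and -0.76 and a difference of -0.91 ± 0.30. Aars had -0.09, 0.45 and -0.97, a difference of -0.88 ± 0.27 from 2 probes. Sars had 0.24, -0.66 and -0.63 and a difference of -0.86. Hars was nearest to 0 (-0.03 ± 0.29). In control cells these mRNAs were heavy-polysomal, with a median log2 heavy over top of 1.27, against 0.89 in Eif4g3 siRNA cells and -0.07 and -0.06 for all genes.

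**Figure D4:**
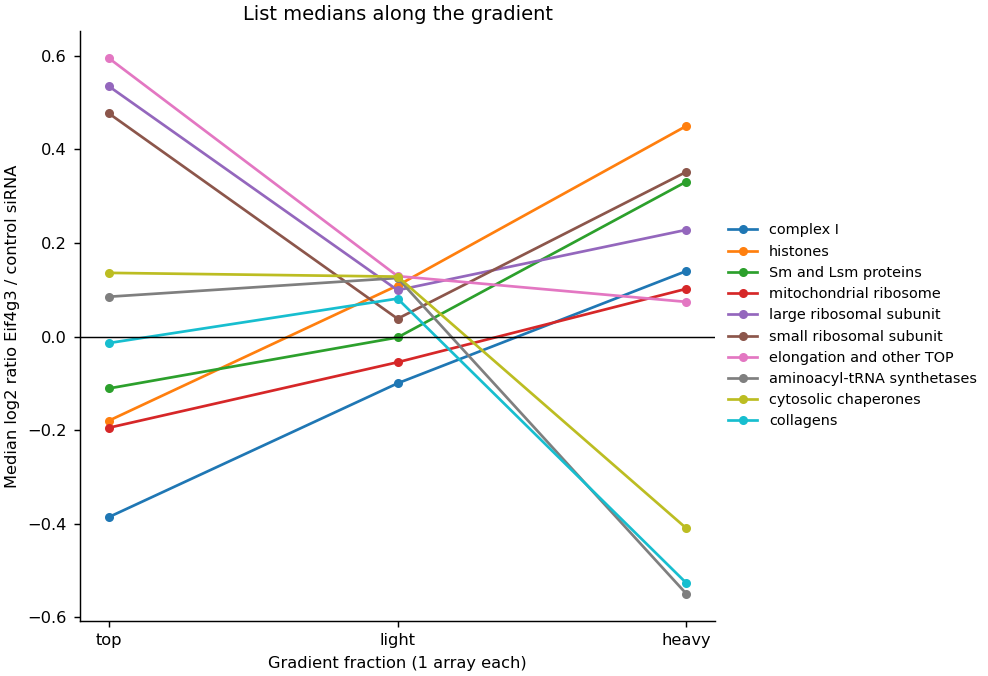
The median log2 siRNA ratio of 10 gene lists (y axis) is drawn in the top, light and heavy fractions (x axis, 1 array each). Complex I runs from -0.39 to 0.14 and histones from -0.18 to 0.45; ribosomal protein and TOP lists are highest at the top, and synthetases, cytosolic chaperones and collagens stay near 0 until the heavy fraction.

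Cytosolic chaperones, which fold new proteins, were likewise near control until the heavy fraction. Their median difference was -0.53 over 22 genes, with 21 below 0 and 2 past 2-fold on the lower side (0.7% of all genes), and the medians along the gradient were 0.14, 0.13 and -0.41. Stip1, which links HSP70 to HSP90, had 0.28, 0.15 and -0.81 and a difference of -1.09 ± 0.30. Hsp90ab1, the constitutive HSP90, had -0.995 ± 0.211 from 2 probes, just inside the threshold. Hspb1, a small heat shock protein, was the 1 member above 0 (0.79 ± 0.30). Glycolysis had a median of -0.50 over 22 genes, 18 below 0 and 3 past 2-fold on the lower side, again against 0.7% of all genes. Eno1, enolase, had 0.38 in top, -0.69 in light and -1.44 in heavy, a difference of -1.81 ± 0.32. Pfkl, the liver form of phosphofructokinase, had 0.31, -0.22 and -0.75 and a difference of -1.06 ± 0.30. Slc16a3, the lactate exporter (0.23), and Pgam1 (0.17) were above 0.

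Cytoskeletal genes differed within their complexes. The Arp2/3 complex, which starts branched actin filaments, had a median of 0.01 over 9 genes but held 2 of the lowest genes of all. Arpc1b had a ratio of 2.65 in top, 1.16 in light and 0.81 in heavy, a difference of -1.84 ± 0.36. Arpc1a had 1.38, 0.14 and -0.52, a difference of -1.90 ± 0.32. They encode alternative forms of the same subunit and lie next to each other on chromosome 5 (mm8, plus strand), with probes at 145360611 to 145361911 for Arpc1a and 145381449 to 145381508 for Arpc1b. Both were far above control at the top, yet Arpc1b remained above it in the heavy polysomes while Arpc1a was below. Arpc5 (0.75) and Arpc5l (0.57), which also encode alternative forms of a subunit, were highest.

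Actomyosin genes had a median of -0.24 over 37 genes, 27 below 0, against 5367 of all 10721 genes. Myh9, the non-muscle myosin heavy chain, had 0.57, 0.30 and -0.74, a difference of -1.30 ± 0.30, whereas its light chain genes Myl9 (0.77 ± 0.29) and Mylc2b (0.56 ± 0.21, now Myl12b) were among the highest of the list. Microtubule and motor genes had -0.28 over 52 genes, 37 below 0 and 2 past 2-fold on the lower side, against 0.7% of all genes. Dctn1, the long arm of dynactin, had -1.34 ± 0.33 and its partner Dctn3 0.72 ± 0.29. Tuba3a had -1.14 ± 0.30, though tubulin copies share sequence. In the nuclear lamina list (median -0.10, 10 genes) Lmnb1, lamin B1, had 0.13, -0.82 and -1.66, a difference of -1.79 ± 0.33. Lmna followed at -0.79 ± 0.17 over 3 probes.

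Collagens, the main fibres of the stroma, had a median of -0.42 over 20 genes with 17 below 0 and 0 past 2-fold. Their ratios were at control level in top (-0.01) and light (0.08) and lower in heavy (-0.53). Col5a3 (-0.96 ± 0.30), Col5a1 (-0.76 ± 0.21) and Col4a1 (-0.72 ± 0.21) were lowest. Other matrix genes had -0.17 over 47 genes and held 1 gene past 2-fold on each side, against 0.811% and 0.7% of all genes. Mgp, an inhibitor of calcification, had -0.82, 0.09 and 0.65, a difference of 1.46 ± 0.30. Bgn, the proteoglycan biglycan, had 0.09, 0.31 and -0.94, a difference of -1.03 ± 0.30. The protease inhibitors Timp1 (0.83 ± 0.21) and Timp3 (-0.80 ± 0.30) lay on opposite sides.

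**Figure D5:**
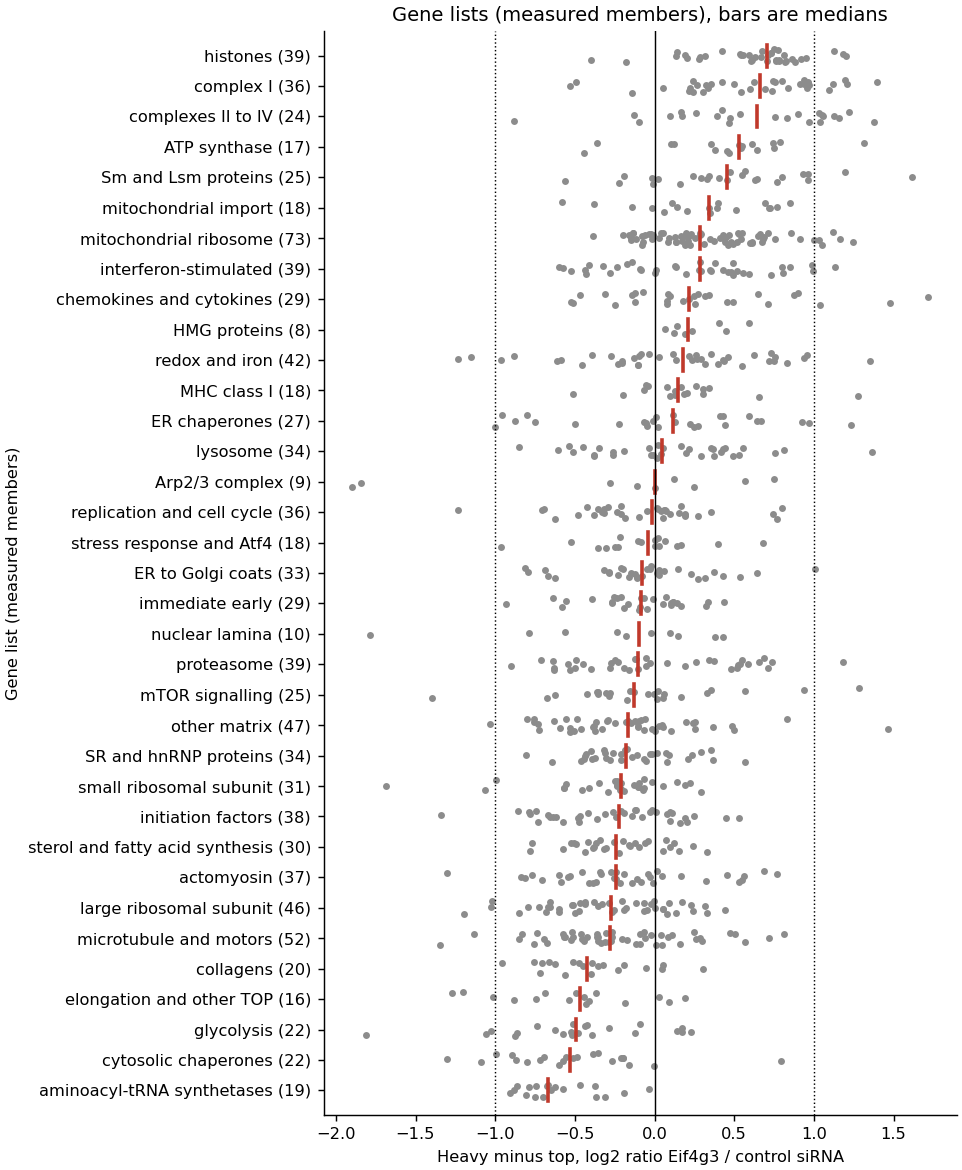
Heavy minus top of the log2 siRNA ratio (x axis) is shown for each measured member (grey points) of 35 gene lists, with the list median as a red bar and 2-fold as dotted lines; numbers in brackets are measured members. Medians run from -0.67 for the aminoacyl-tRNA synthetases to 0.70 for histones, and most lists hold members on both sides of 0.

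Several lists had medians near that of all genes but members far out on both sides. In the mTOR list (median -0.13, 25 genes), Rheb, the small GTPase that turns mTOR on, had -1.20 in top, -0.01 in light and 0.09 in heavy, a difference of 1.28 ± 0.31. Ddit4, an mTOR inhibitor induced by stress, had -0.07, -1.03 and -1.46, a difference of -1.40 ± 0.32. Rheb was thus low at the top alone and Ddit4 low in both polysome fractions. Frap1, now named Mtor, had 0.94 ± 0.34, on dim top signals of 30.6 and 27.2. The measured ferritin genes were below 0. Ftl1 had 0.97, 0.00 and -0.18, a difference of -1.15 ± 0.30, and Fth1 had 1.32, 0.38 and 0.36, a difference of -0.97 ± 0.30, which was -0.44 with the software's ratio. Ftl2, a ferritin light chain pseudogene by current naming (Ftl2-ps) whose probe may read Ftl1 as well, had -1.23 ± 0.30. The software's ratio gave -1.04 for Ftl1 and -1.02 for Ftl2. Ferritin stores iron, and its mRNAs carry an iron-responsive element near the cap. The whole redox and iron list had a median of 0.18 with 24 of 42 genes above 0. It was led by Txn1, thioredoxin (1.35 ± 0.30, from -0.89 in top to 0.47 in heavy), and Sod2, the mitochondrial superoxide dismutase (0.96 ± 0.30).

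The endoplasmic reticulum list (median 0.12, 27 genes) also divided. Spcs1, a small signal peptidase subunit, had -1.03, -0.21 and 0.20, a difference of 1.23 ± 0.30. The channel subunits Sec61g (0.97 ± 0.30) and Sec61b (0.92 ± 0.30) followed, while Bcap29 (-1.0 ± 0.40), Dnajc1 (-0.96 ± 0.22) and the calcium-binding chaperone Calr (-0.88 ± 0.21) were lowest. Bcap29 was below control on all 3 arrays, from -1.19 in top to -2.19 in heavy, but its difference was only -0.31 with the software's ratio, which gave -0.88 for Dnajc1 and -0.975 for Calr. Proteasome genes (median -0.10, 39 genes) had subunits of the proteolytic core at one end, Psma5 (1.18 ± 0.30), Psma7 (0.74) and Psmb6 (0.71), and of the regulatory particle at the other, Psmd1 (-0.90), Psmd2 (-0.71) and Psmc5 (-0.64). Coat and tether genes of vesicle traffic (median -0.08, 33 genes) ran from Copb1 (-0.82 ± 0.36) and Sec31a (-0.79 ± 0.30) to the small tether subunit Trappc2 (1.01 ± 0.33). With the software's ratio Copb1 had -0.23 and Sec31a -0.785.

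Lysosome genes (median 0.05, 34 genes) were led by Ctsl, a cysteine protease, with -1.55, -0.40 and -0.19 and a difference of 1.36 ± 0.32. Its ratio was below 0 throughout. Of the list 20 genes were above 0 and 14 below. The lowest were subunits of the proton pump that acidifies lysosomes, Atp6v1h (-0.85 ± 0.27), Atp6v0c (-0.60 ± 0.32) and Atp6v0a1 (-0.54 ± 0.23), which had -0.56, -0.08 and -0.16 with the software's ratio. The Atp6v0a1 probes ran from -1.089 to 0.016. Another subunit of the same pump, Atp6v0e, was among the highest of the list at 0.755 ± 0.27, with probes at 0.258 and 1.252. Sterol and fatty acid synthesis genes had -0.24 over 30 genes with 23 below 0, against 5367 of all 10721, and 0 past 2-fold. Hmgcs1 was lowest (-0.78 ± 0.29). Replication and cell cycle genes were balanced, 18 above and 18 below 0, from Mcm7 of the replicative helicase (-1.23 ± 0.30, ratios of 0.82, 0.05 and -0.41) to the centromeric histone Cenpa (0.80 ± 0.30). Immediate early genes (median -0.08, 29 genes) ran from Arc (-0.93 ± 0.34) to Jund1 (0.44), and the Atf4 stress list (median -0.04, 18 genes) from Shmt2 (-0.96 ± 0.30) to Psph (0.68 ± 0.21).

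Immune genes of the stroma were led by secreted chemoattractants. Ccl8, a monocyte chemokine, had the highest difference of all genes, with ratios of -1.15 in top, 0.00 in light and 0.56 in heavy, a difference of 1.71 ± 0.31. Cklf, a chemokine-like factor, had -0.94, 0.11 and 0.54, a difference of 1.48 ± 0.31. Ccl2, another monocyte chemokine, had -1.20, -0.18 and -0.15, a difference of 1.04 ± 0.31. At the top Ccl8 and Ccl2 were past 2-fold below control and Cklf was close to it, whereas the polysomal ratios ranged from near control to above it. The list's median was 0.21 over 29 genes, with Cxcl1 (-0.52 ± 0.43) and Tgfb3 (-0.51 ± 0.30) lowest. MHC class I genes had a median of 0.15 over 18 genes, and apart from B2m none passed 2-fold. Interferon-stimulated genes had a median of 0.28 over 39 genes, but -0.12 with the scanner software's ratio. Among them Bst2, which tethers viruses to the cell, had 0.12, 0.84 and 1.25, a difference of 1.13 ± 0.31, and Isg15 (0.996 ± 0.329) and Ifi27 (0.99 ± 0.20, 3 probes) lay just inside the threshold. At the other end were Ifi205 (-0.60 ± 0.32), Irgm, now named Irgm1 (-0.575 ± 0.235, 2 probes), and Ifi204 (-0.52 ± 0.19, 3 probes). With the software's ratio these had -1.045, -1.045 and -0.80.

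The threshold divides a continuous spread. Just past it on the higher side were Mrps6 (1.002), Hint1 (1.001) and Trappc2 (1.01), and just short of it were Isg15 (0.996), Chchd4 (0.995) and Ang2 (0.993). On the lower side Eef1a1 (-1.01) and Taf15 (-1.01) passed it, and Rps15 (-0.997), Supt5h (-0.996) and Hsp90ab1 (-0.995) did not. The scanner software's ratio gave 72 of the 87 higher calls and 49 of the 75 lower ones again, and the calls it left out were not only those near the threshold. With that ratio the differences of Rps2 (-0.73), Rpl5 (-0.75), Pabpc1 (-0.85), Eef1a1 (-0.94), Pfkl (-0.96), Ybx1 (-0.97) and Eif4g3 (-0.99) kept their sign and fell short of 2-fold. So did those of Mrpl20 (0.88), Chchd2 (0.90), Uqcrb (0.91), H2afz (0.97), Cycs (0.97), Trappc2 (0.97), Cotl1 (0.98), Mrps28 (0.99) and Ccl2 (0.998). The difference could not be formed for 3683 genes measured on the heavy array and not on the top one, and for 221 in the reverse case.

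Background-subtracted signals were weakest on the top array, where the upper quartile was 38.2 for control and 37.0 for siRNA cells. The heavy array had 976.9 and 339.8, and the arrays measured 10942 genes (top), 14094 (light) and 14404 (heavy). Top ratios were the most compressed relative to the software's own ratio (slope of 0.571, against 0.718 for light and 0.721 for heavy), and how far this enters each difference was not tested beyond the rescaling given in the closing section. Markers of fibroblastic stroma were mostly present, with 11 of 13 measured on the top array and 11 on the heavy array, among them Pdpn and Pdgfrb. The follicle chemokine gene Cxcl13 and the muscle filament gene Des were not well above background. Of 10 endothelial markers, 1 was measured in top (Flt1) and 4 in heavy, and Pecam1 and Cdh5 were not well above background on any array. Of 18 leukocyte markers 3 were measured in top and 7 in heavy, among them Lyzs, Csf1r and Coro1a on both arrays. The pan-leukocyte gene Ptprc was not well above background. Of 14 epithelial and smooth muscle markers 6 were measured in top and 8 in heavy. They were led by the contractile genes Tagln, Cnn1 and Acta2, whose differences were small, at 0.02 ± 0.20, -0.34 ± 0.30 and -0.08 ± 0.15.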

How the data were processed

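Each array's deposited scanner file gives a linear intensity per spot and colour, the output of Feature Extraction software from Agilent (10.5.1.1), per the file headers. The software's log10 ratio of processed red over green, and an error score for that ratio, are in the same files, per the file headers. The log2 ratios of the value table that the authors deposited equal the processed red over green signals within 2.8e-06 for single-spot probes; its column medians were -0.09 (top), -0.01 (light) and 0.22 (heavy), and any further centring was not stated in those sources.

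Mean signals less median local backgrounds were corrected in limma (3.58.1, under R 4.3.3) with normexp and an offset of 50, which pulls dim ratios towards 0. Loess then normalized within each array, giving control spots no weight. Spots with outlier marks were left out (220 on the top, 170 on the light, 183 on the heavy array), and no spot was saturated. Spots of a probe, then measured probes of a gene, were averaged. All 3 arrays lie on 1 slide. The error beside a difference combines the software's errors, made for its own ratio, over probes as if these were independent. The heavy over top signal of each channel was taken after Aquantile normalization between arrays. The steps were tested on simulated data.

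The members and the 39 gene lists, 4 of them cell type markers, were chosen with earlier results of these data known. Genes are named by the files, and 9735 matched a current GRCm38.p6 symbol. Named were the eIF4G genes, the 12 highest and 12 lowest past 2-fold with 2 or more probes on 1 side of 0 (8 existed on the lower side), the 12 highest and 12 lowest past 2-fold with at least median signal that the software's ratio also put past 2-fold, and the 3 highest, 3 lowest and any 2-fold members of each list. Clone or predicted names, 2334 of those measured, were not named. A few genes that the rule names are not reported here, though they are counted. Other genes beside the threshold, and the motif CTTTC with its windows, were chosen after the data were seen. Alternatives were the offset, no loess, the software's ratio, no filter or a brighter filter, the median over probes, equal spread of the arrays, marked spots kept, and median signals. A split by protein length was not run.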

Additional observations from a re-analysis of the deposited data

Results flagged for a closer look

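The results below had ratios of opposite sign in the top and the heavy fraction, with each array a single sample, and the difference was not tested. They are a selection and not a complete list. Among genes past 2-fold, 74 of the 87 higher and 55 of the 75 lower ones had opposite signs. The medians of the aminoacyl-tRNA synthetases did so too (0.085 in top and -0.55 in heavy) and are not repeated below. They follow from the heavy minus top differences of the report and are not separate evidence.

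Above 0 were the list medians of complex I (0.659), complexes II to IV (0.645), ATP synthase (0.527), the mitochondrial ribosome (0.287), mitochondrial import (0.342), Sm and Lsm proteins (0.454) and histones (0.704). Below 0 were those of glycolysis (-0.496) and cytosolic chaperones (-0.532).

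Single genes with a higher ratio in heavy were Ccl8 (1.715), Snrpd3 (1.613), Cklf (1.478), Mgp (1.464), Ndufa1 (1.398), Cox6a1 (1.38), Txn1 (1.353), Zcd1 (1.34), Atp5g3 (1.313), B2m (1.278), Cox7a2 (1.223), Chchd2 (1.051), Cycs (1.048) and Rnase4 (1.037). Those with a lower ratio in heavy were Arpc1a (-1.896), Myh9 (-1.304), Hspa8 (-1.303), Eef2 (-1.271) and Pkm2 (-1.025).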

How the results depend on the processing

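With an offset of 0 in place of 50, 201 genes were higher and 136 lower at 2-fold, of which 84 and 66 were among the 87 and 75 of the report. The scanner software's own ratio gave 301 and 155, sharing 72 and 49, so that 66.0% of calls were higher in place of 53.7%. Centring without loess gave 104 and 164, sharing 58 and 68, lowered that share to 38.8% and moved the median of all genes by -0.08. The cause was not tested. With the arrays' ratios scaled to equal spread 115 were higher and 95 lower, and the other 5 alternatives gave 77 to 88 and 61 to 77. Of the 35 gene lists, 24 had a median larger than the SD between probes of a gene, and 22 of these lay on 1 side of 0 under every alternative run. The exceptions were the small ribosomal subunit (0.024) and interferon-stimulated genes (-0.118), both with the software's ratio. No paired analysis was possible because each fraction has a single array and the labels carry no replicate numbers shared between groups. With no second array, none could be left out. Protein lengths were not used here. Dim spots of the top array limit which genes could be measured.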
